A study of Mus musculus with 12 samples.

Results

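The genes described are 10 members of lipid breakdown in fat, namely the intracellular lipases Pnpla2, Pnpla3, Lipe, Mgll and Ces1d, the lipase regulators Abhd5 and G0s2, and the lipoprotein lipase genes Lpl, Gpihbp1 and Angptl4. Their members are all ATAC-seq peaks, regions of open chromatin, that the deposited tables assign to one of these genes. They came to 50 of 58558 peaks in brown fat and 33 of 39558 in inguinal fat, or 83 of 98116 in all, and 9 of the 10 genes had a peak in each table. No peak was assigned to Gpihbp1.

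The study compared mice that lack BAF60a in adipocytes (AKO) with flox/flox controls (flox). BAF60a, encoded by Smarcd1, belongs to the SWI/SNF complexes, which remodel chromatin. ATAC-seq was run on 3 samples of each genotype in brown adipose tissue (BAT) and on 3 in inguinal white adipose tissue (iWAT), 12 samples in all. All mice were C57BL/6 and carried the floxed BAF60a alleles, and AKO mice also carried Cre driven by the Adiponectin promoter, which is active in mature adipocytes. The BAT samples came from 3 mice per genotype, whose age is not given in the sources used here. The study's methods do not state the housing temperature of these BAT mice. The iWAT came from mice 6 to 8 months old that were acclimated to cold in a chamber lowered by 3 °C a day and then held at 10 °C for 7 days. For each genotype iWAT of 6 mice was pooled and divided into 3 aliquots, so an iWAT p-value covers the spread between aliquots of a single pool and not between mice. Both tissues were whole fat pads, which hold vascular, immune and stromal cells that Cre does not target. In such bulk tissue fewer adipocyte nuclei and less signal per nucleus cannot be told apart.

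Stored triacylglycerol is broken down stepwise in the adipocyte. Adipose triglyceride lipase (ATGL, encoded by Pnpla2) removes the first fatty acid, hormone-sensitive lipase (Lipe) acts on the diacylglycerol and monoglyceride lipase (Mgll) releases the last fatty acid and glycerol. ATGL is activated by its co-activator CGI-58 (Abhd5) and blocked by G0s2. Fatty acids enter from the blood through lipoprotein lipase (Lpl), which is carried to the capillary lumen by Gpihbp1 and inactivated by Angptl4, and both routes feed thermogenesis in cold-exposed fat.

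The sequences of 7 peaks are shown first because the results turn on them. Each is the 300 bases around a peak's midpoint in the mouse build GRCm38 (mm10), written 5′ to 3′ on the plus strand. Capitals mark a match to the PPAR response element AGGTCANAGGTCA on either strand with at most 2 mismatches, and a window without a match is in lower case throughout. PPARγ, which binds this element with RXR, is the master regulator of adipocytes. The first window holds the only exact match among the member windows. It lies upstream of Mgll in a peak that did not pass any test in iWAT, whereas the 2 Mgll windows after it are from introns whose peaks were higher in AKO iWAT by the tests on read counts.
Mgll, 6.8 kb upstream, iWAT, chr6:88717432-88717731: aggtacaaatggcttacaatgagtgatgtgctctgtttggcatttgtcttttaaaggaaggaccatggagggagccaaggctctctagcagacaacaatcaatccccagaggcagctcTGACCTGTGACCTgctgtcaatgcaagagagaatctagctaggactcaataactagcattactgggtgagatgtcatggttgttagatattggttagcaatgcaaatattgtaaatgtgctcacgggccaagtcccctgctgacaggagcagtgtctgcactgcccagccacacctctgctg
Mgll, intron 2, iWAT, chr6:88761236-88761535: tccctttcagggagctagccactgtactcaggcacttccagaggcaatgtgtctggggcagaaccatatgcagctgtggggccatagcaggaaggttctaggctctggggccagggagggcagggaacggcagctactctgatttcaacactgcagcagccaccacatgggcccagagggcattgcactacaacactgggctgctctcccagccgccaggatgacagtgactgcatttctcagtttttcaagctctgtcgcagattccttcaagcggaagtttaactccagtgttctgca
Mgll, intron 3, iWAT, chr6:88776604-88776903: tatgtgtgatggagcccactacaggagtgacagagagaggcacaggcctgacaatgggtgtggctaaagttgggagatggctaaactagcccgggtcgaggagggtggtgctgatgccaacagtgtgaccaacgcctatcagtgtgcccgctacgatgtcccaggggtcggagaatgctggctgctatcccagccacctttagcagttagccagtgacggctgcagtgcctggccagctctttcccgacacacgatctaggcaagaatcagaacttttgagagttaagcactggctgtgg
Lipe, intron 1, iWAT, lower in AKO by the count tests, chr7:25391017-25391316: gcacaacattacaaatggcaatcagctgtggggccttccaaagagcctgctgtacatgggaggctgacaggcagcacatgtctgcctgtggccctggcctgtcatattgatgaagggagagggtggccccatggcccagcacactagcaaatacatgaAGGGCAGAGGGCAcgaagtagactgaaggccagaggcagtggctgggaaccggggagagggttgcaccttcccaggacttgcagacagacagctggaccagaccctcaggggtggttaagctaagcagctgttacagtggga
G0s2, 13.0 kb upstream, BAT, every AKO value below every flox value, chr1:193286096-193286395: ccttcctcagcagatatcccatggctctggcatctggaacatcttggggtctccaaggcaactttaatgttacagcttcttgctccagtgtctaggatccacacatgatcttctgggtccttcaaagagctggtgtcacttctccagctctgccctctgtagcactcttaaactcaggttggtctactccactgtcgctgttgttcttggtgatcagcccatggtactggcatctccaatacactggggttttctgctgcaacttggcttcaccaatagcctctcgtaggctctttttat
G0s2, 1.6 kb upstream, BAT, every AKO value below every flox value, chr1:193274621-193274920: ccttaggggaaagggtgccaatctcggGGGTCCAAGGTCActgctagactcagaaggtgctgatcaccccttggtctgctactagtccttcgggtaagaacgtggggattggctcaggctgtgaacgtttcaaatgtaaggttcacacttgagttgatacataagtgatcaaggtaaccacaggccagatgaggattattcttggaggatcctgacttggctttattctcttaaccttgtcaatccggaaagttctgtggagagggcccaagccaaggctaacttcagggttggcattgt
Lpl, 31.2 kb upstream, BAT, the smallest p of the BAT members, chr8:68849135-68849434: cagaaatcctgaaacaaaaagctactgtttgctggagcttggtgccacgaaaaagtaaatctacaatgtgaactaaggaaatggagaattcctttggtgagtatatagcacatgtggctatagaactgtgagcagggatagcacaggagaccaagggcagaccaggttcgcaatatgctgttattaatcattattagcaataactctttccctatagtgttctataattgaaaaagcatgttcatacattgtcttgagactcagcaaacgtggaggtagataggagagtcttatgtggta
The Lipe and G0s2 matches differ from the element at 2 positions. The Mgll element lies on the minus strand at chr6:88717550-88717562, the Lipe match on the plus strand at chr7:25391175-25391187 and the G0s2 match on the plus strand at chr1:193274648-193274660.

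The libraries held 6336670 to 27500738 reads in peaks in BAT and 4066720 to 6691161 in iWAT. In BAT, AKO replicate 2 stood apart: it had the fewest reads. The 2928 peaks with the highest mean signal over all BAT libraries held 21.0% of its signal, against 24.5% to 27.0% in the other 5 libraries. The first principal component of the BAT samples carried 55.58% of the variance, with scores of -98.15, -41.83 and 14.63 in flox and -0.617, 112.5 and 13.5 in AKO. The targeted gene was checked at the Smarcd1 peak over exon 5 (chr15:99704113-99704521), which held 136, 201 and 185 normalized reads in BAT flox and 23.7, 57.9 and 26.9 in BAT AKO. Its log2 fold change was -2.98 ± 0.265 (SE, n = 3 per group), with adjusted p = 0.269 in limma and 4.04e-11 in DESeq2. The iWAT table has no peak at that exon, and its Smarcd1 start-site peak, at 216 ± 30.7 in flox and 231 ± 1.83 in AKO (SD, n = 3), cannot check the genotype labels.

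Marker genes of fat were open in both tissues, with peaks at 6 of 6 adipocyte and 6 of 6 brown adipocyte markers in each table. In BAT, 22 of 50 adipocyte marker peaks were lower in every AKO sample than in every flox sample and 3 were higher, against 8.84% and 8.77% of all BAT peaks, with a median log2 fold change of -0.28. The summed adipocyte marker signal per kb was 575 to 607 in BAT flox and 399 to 503 in BAT AKO. The 35 endothelial marker peaks had a median of 0.02 in BAT and summed signals of 205 to 237 in flox and 228 to 251 in AKO, which overlapped. The part of cell composition in the BAT results below was not tested. In BAT, the medians were -0.16 over 39 brown adipocyte peaks, 0.10 over 10 inguinal depot peaks, -0.35 over 6 macrophage peaks, 0.02 over 2 lymphocyte peaks, -0.15 over 9 skeletal muscle peaks, 0.14 over 12 fibroblast and preadipocyte peaks and 0.10 over 14 mural cell peaks. Peaks lay at 4 of 7 skeletal muscle, 3 of 7 macrophage and 2 of 8 lymphocyte markers in BAT, and at 2, 4 and 2 of them in iWAT. For endothelial markers this was 8 of 8 in BAT and 6 of 8 in iWAT, and for inguinal depot markers 4 of 4 and 3 of 4. Both tissues had peaks at 5 of 6 fibroblast and preadipocyte and 4 of 5 mural cell markers. In iWAT, the 22 adipocyte marker peaks had a median of -0.06, with 4 lower and 2 higher without overlap against 10.3% and 10.6% of all iWAT peaks, and the medians of the other 8 lists ran from -0.18 in macrophage to 0.14 in endothelial peaks.

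In BAT, the lipolysis and lipoprotein lipase genes had more peaks below than above the control level in AKO, and the 4 peaks of G0s2 were lower in every AKO sample than in every flox sample. Chromatin at 12 of 50 member peaks was lower in AKO without overlap between the genotypes, against 8.84% of all BAT peaks, and none was higher, against 8.77%. The 12 peaks belonged to G0s2 (4), Lpl (3) and, with 1 each, Pnpla2, Pnpla3, Lipe, Ces1d and Angptl4. This count depended on the normalization. With normalization to total reads in peaks, 8 member peaks were lower and 1, at Mgll, was higher without overlap. The share of all BAT peaks under that normalization is not given here. No member peak passed an adjusted p of 0.1 in limma with the first principal component (PC1) as a covariate, in either direction, as for 0% of all BAT peaks in each direction, and the smallest member adjusted p was 0.48. At an unadjusted p under 0.05, limma gave 2 lower member peaks against 5.59% of all BAT peaks and 0 higher against 3.46%.

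With PC1 kept, DESeq2 and edgeR on whole reads and limma with a mean-variance trend also called 0 of the 50 BAT peaks. DESeq2 left 2 of the 50 without an adjusted p. The background of these tests was 0.217% lower and 0.0803% higher in DESeq2, 0.108% and 0.0273% in edgeR, and 0.0751% and 0.0154% in limma with a trend. Without the PC1 covariate, DESeq2 called 2 member peaks lower, at G0s2 and Pnpla2, against 0.517% of all peaks, and 0 higher against 0.512%. Without it, limma gave 10 lower members at an unadjusted p under 0.05 against 4.37% and 0 higher against 7.57%. The fitted log2 fold change was negative at 31 of 50 member peaks with PC1 and at 41 without it, with medians of -0.10 and -0.26, while 49.1% and 51.7% of all BAT peaks were negative. Leaving out the AKO replicate 2 library gave 14 lower peaks without overlap against 12.9% and 1 higher against 11.4%, and a median of -0.08. The count of lower peaks was 25 without AKO replicate 1 against 15.3% and 22 without flox replicate 3 against 16.9%. It was from 13 to 16 when any of the other 3 libraries was left out, against 12.3% to 14.5% of all BAT peaks. The median turned to 0.01 when flox replicate 3 or AKO replicate 3 was left out. Without AKO replicate 3 limma gave 0 lower and 3 higher members at an unadjusted p under 0.05. For that fit the share of all BAT peaks is not given here, so these counts cannot be set against a background.

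**Figure D1:**
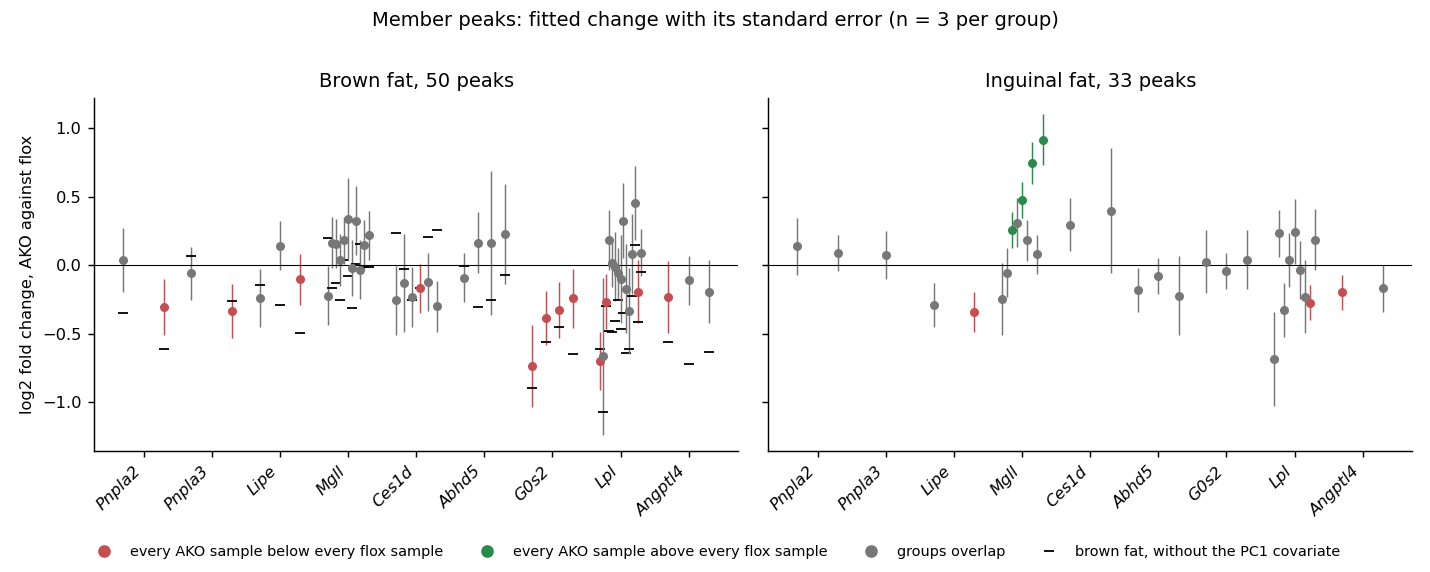
Fitted log2 fold change, AKO against flox, of each member peak by gene, in BAT (50 peaks, left) and iWAT (33 peaks, right), with bars for the standard error and n = 3 per group. Red points are peaks where every AKO sample was below every flox sample (12 in BAT, 3 in iWAT), green points the opposite (0 and 4), and short black lines give the BAT values without the PC1 covariate, which lie lower at most peaks.

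The members were lowest in the AKO replicate 2 library. The median log2 deviation of the 50 BAT member peaks from the flox mean was 0.149, -0.027 and -0.137 in flox replicates 1 to 3 and -0.055, -0.431 and -0.25 in AKO replicates 1 to 3. The 5% of BAT peaks with most signal deviated by 0.179, -0.034 and -0.139 in flox and by -0.08, -0.495 and -0.033 in AKO. The members thus lay near the strongest peaks in 5 libraries and 0.25 below the flox mean in AKO replicate 3, where the strongest peaks were at -0.033. In iWAT, the members' deviations stayed between -0.096 and 0.089 in all 6 libraries.

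**Figure D2:**
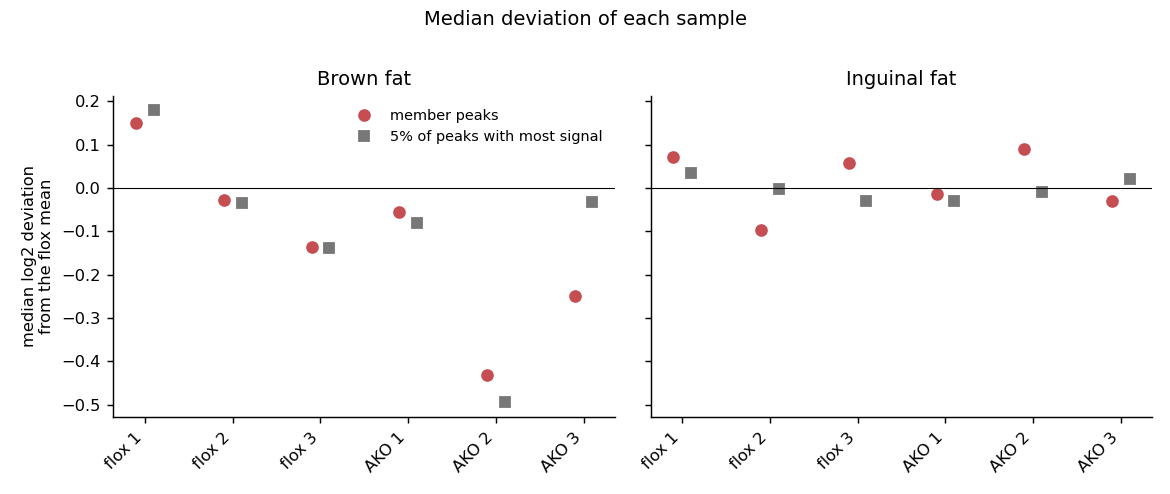
Median log2 deviation from the flox mean for each sample, for member peaks (red circles) and for the 5% of peaks with most signal (grey squares), in BAT and iWAT. In BAT the lowest value of both sets is in AKO replicate 2 (-0.431 and -0.495), and in iWAT the member medians lie between -0.096 and 0.089.

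In iWAT, signal inside Mgll was higher and signal at Lipe lower in AKO by DESeq2, edgeR and limma with a mean-variance trend. Neither was called by limma without a trend. DESeq2, edgeR and limma with a mean-variance trend each called the same 4 of 33 member peaks at an adjusted p of 0.1, with 3 Mgll intron peaks higher and the Lipe intron peak lower. The background for the lower calls was 0.569% in DESeq2, 2.54% in edgeR and 2.0% in limma with a trend, and for the higher calls 0.493%, 2.14% and 1.64%. Limma without a trend called 0 lower and 0 higher, as for 0% of all iWAT peaks in each direction, and its smallest member adjusted p was 0.151. At an unadjusted p under 0.05 limma gave the same Lipe peak lower against a background of 7.42% and the same 3 Mgll peaks higher against 7.61%. Without overlap between the genotypes, 3 members were lower against 10.3% and 4 were higher against 10.6%. The 3 became 9 without flox replicate 2 against 18.2% of all iWAT peaks, and 7 without AKO replicate 2 against 15.2%. The fitted change was negative at 15 of 33 peaks, with a median of 0.04. The smallest p that an exact permutation test of 3 against 3 can give is 0.1.

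Pnpla2 encodes ATGL, which starts triacylglycerol breakdown. Its start-site peak in BAT (chr7:141454418-141457061) held 3281, 2395 and 2275 normalized reads in flox and 2056, 1510 and 1609 in AKO. Every AKO value was below every flox value, and the AKO mean was 0.651 of the flox mean. The log2 fold change was -0.31 ± 0.207 (SE, n = 3 per group; limma adjusted p = 0.692), and -0.61 without PC1, where DESeq2 gave -0.62 with adjusted p = 0.1. The other BAT peak, 3.0 kb upstream (chr7:141452043-141452460), held 994, 682 and 812 against 779, 471 and 723, with overlapping genotypes and a change of 0.04 ± 0.233 in limma (SE). In iWAT, the start-site peak (chr7:141455024-141455926) held 349, 315 and 287 in flox and 344, 324 and 340 in AKO. These values overlapped, and the changes at the start and 3.0 kb upstream (chr7:141452047-141452401) were 0.09 ± 0.134 and 0.14 ± 0.208 in limma (SE, adjusted p = 0.796 for both).

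Pnpla3 encodes adiponutrin, a lipid droplet protein related to ATGL. The peak assigned to it nearest its start, 5.7 kb upstream in BAT (chr15:84161867-84162329), held 261, 262 and 285 normalized reads in flox and 196, 228 and 252 in AKO. The genotypes did not overlap, and the log2 fold change was -0.34 ± 0.199 (SE, n = 3 per group; limma adjusted p = 0.655). The same region in iWAT (chr15:84161901-84162330) held 74.1, 78.9 and 86.9 in flox and 66.9, 91.3 and 97.3 in AKO, which overlapped. The second BAT peak, 11.6 kb upstream, had a change of -0.06 ± 0.193.

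Lipe encodes hormone-sensitive lipase, and its intron 1 peak covers another annotated start of the gene. In the RefSeq promoters of GRCm38.p6, Lipe has a second promoter window at chr7:25390063-25390362 on the minus strand, and the peaks of both tissues span it. In iWAT the intron 1 peak (chr7:25389997-25392335) held 1077, 872 and 1067 normalized reads in flox and 808, 820 and 742 in AKO. All AKO aliquots were below all flox aliquots. The log2 fold change was -0.34 ± 0.143 (SE, n = 3 per group), with adjusted p = 0.32 in limma, 0.0261 in DESeq2, 0.00559 in edgeR and 0.0112 in limma with a trend. With each aliquot left out in turn the change stayed between -0.44 and -0.29, and the unadjusted limma p, 0.0455 with all aliquots, was 0.0177 without flox replicate 2 and between 0.0694 and 0.133 in the other 5 cases (adjusted p from 0.244 to 0.592).

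The first-exon peak of Lipe in iWAT (chr7:25395585-25396149) held 309, 224 and 261 in flox and 204, 231 and 209 in AKO, and flox replicate 2 lay below AKO replicate 2. Its change was -0.29 ± 0.159 (SE; limma adjusted p = 0.433). In BAT the intron 1 peak (chr7:25389939-25392315) held 4744, 4122 and 3745 in flox and 3626, 2213 and 3263 in AKO. The genotypes were apart, and the change was -0.10 ± 0.185 with PC1 (limma adjusted p = 0.889) and -0.49 without it. The BAT start-site peak (chr7:25395571-25396584) held 1251, 1030 and 909 against 1013, 639 and 991, which overlapped, and its direction depended on the covariate, at 0.14 with PC1 and -0.29 without. The third BAT peak, 6.2 kb upstream (chr7:25402077-25403064), held 177, 192 and 160 against 138, 184 and 158, with a change of -0.24 ± 0.212 (SE; limma adjusted p = 0.767).

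Mgll encodes monoglyceride lipase, and its introns held the largest increases among the iWAT members. At the intron 3 peak, 52.3 kb from the start (chr6:88776569-88776938), flox held 54.9, 84.5 and 77.5 normalized reads and AKO 136, 126 and 144. The AKO aliquots were all above the flox aliquots, with a mean 1.87 times the flox mean. The log2 fold change was 0.92 ± 0.186 (SE, n = 3 per group), with adjusted p = 0.151 in limma, 0.00887 in DESeq2 and 0.00131 in edgeR. At the intron 2 peak 37.0 kb from the start (chr6:88761248-88761522), flox held 85.5, 84.5 and 70.6 and AKO 152, 135 and 119. These did not overlap either, and the change was 0.74 ± 0.154 (SE; adjusted p = 0.151 in limma and 0.0319 in DESeq2). At the intron 2 peak 22.1 kb from the start (chr6:88746242-88746694), flox held 177, 169 and 174 and AKO 267, 233 and 226, a change of 0.48 ± 0.131 (SE; adjusted p = 0.19 in limma and 0.0788 in DESeq2).

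Another intron 2 peak, 2.7 kb from the start (chr6:88726943-88727285), was also higher in AKO without overlap, at 145, 126 and 135 against 114, 119 and 106, but passed none of the tests (0.26 ± 0.131; adjusted p = 0.408 in limma and 0.564 in DESeq2). The Mgll start-site peak in iWAT (chr6:88724241-88725089) held 205, 202 and 214 in flox and 199, 248 and 159 in AKO. It overlapped, with a change of -0.05 ± 0.18 (SE; limma adjusted p = 0.914). The upstream peak with the exact PPAR element (chr6:88717460-88717702) was weak, at 34.2, 26.7 and 27.5 in flox and 27.7, 33.1 and 16.0 in AKO. Its values overlapped, and its change of -0.25 ± 0.263 (SE; limma adjusted p = 0.699) was opposite in sign to those of the introns. Of the 9 Mgll peaks in iWAT, 7 had a positive change, from 0.08 to 0.92, and the same 7 were positive with each aliquot left out in turn.

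In BAT, the peaks at the same Mgll introns gave other values. The start-site peak (chr6:88724268-88724992) held 513, 439 and 353 in flox and 458, 328 and 372 in AKO, and the intron 3 peak (chr6:88776538-88777035) held 449, 426 and 338 against 427, 361 and 409. Both overlapped, and their changes were 0.17 ± 0.187 and 0.22 ± 0.179 with PC1 and -0.17 and -0.01 without it (limma adjusted p = 0.817 and 0.744 with PC1). The 11 BAT peaks of Mgll ran from -0.23 to 0.34 with PC1, 8 of them positive, and 4 of the 11 were positive without it. None was apart between the genotypes.

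Ces1d encodes a carboxylesterase that hydrolyzes triacylglycerol in fat, and it lies in a cluster of closely similar Ces1 genes. Its start-site peak in BAT (chr8:93196521-93198195) held 693, 698 and 761 normalized reads in flox and 664, 614 and 642 in AKO. The genotypes were apart by a small margin, with a change of -0.17 ± 0.177 (SE, n = 3 per group; limma adjusted p = 0.8). The peak over exon 14 (chr8:93166233-93166852) had the smallest p of its BAT peaks, at 76.8, 110 and 148 against 108, 168 and 118, which overlapped. Its change was -0.30 ± 0.184 with PC1 (SE; limma adjusted p = 0.663) and 0.26 without. All 6 Ces1d changes were negative with PC1 and 3 of 6 without it. In iWAT the start-site peak (chr8:93197645-93198169) held 101.2, 90.1 and 146 against 138, 130 and 137, a change of 0.30 ± 0.193 (SE; limma adjusted p = 0.516). The other iWAT peak, in intron 7, held only 4.3 to 17.1 normalized reads.

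Abhd5 encodes CGI-58, the co-activator of ATGL. Its start-site peak in BAT (chr9:122351259-122353594) held 1443, 916 and 873 normalized reads in flox and 1097, 674 and 821 in AKO. These values overlapped, and the change was 0.16 ± 0.222 with PC1 (SE, n = 3 per group; limma adjusted p = 0.851) and -0.31 without it. In iWAT the start-site peak (chr9:122351438-122352295) held 312, 309 and 330 in flox and 282, 329 and 291 in AKO. The change was -0.08 ± 0.129 (SE; limma adjusted p = 0.814), and that of the peak 14.1 kb upstream (chr9:122336799-122338194) was -0.18 ± 0.161 (SE; limma adjusted p = 0.637). None of the 4 BAT or 3 iWAT peaks of Abhd5 was apart between the genotypes.

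G0s2, the inhibitor of ATGL, was the only member whose BAT peaks were all lower in AKO without overlap. At the peak 13.0 kb upstream (chr1:193285985-193286506), flox held 190, 268 and 219 normalized reads and AKO 161, 94.6 and 111. Every AKO value was below every flox value, and the AKO mean was 0.542 of the flox mean. The log2 fold change was -0.74 ± 0.301 (SE, n = 3 per group; limma unadjusted p = 0.0439, adjusted p = 0.544). DESeq2 without PC1 gave -0.87 with adjusted p = 0.0863.

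Nearer the gene, the G0s2 peak 5.4 kb upstream (chr1:193278144-193279087) held 669, 706 and 662 in flox and 485, 381 and 529 in AKO. The peak 1.6 kb upstream (chr1:193274503-193275038), which carries the match printed above, with 2 mismatches to the PPAR element, held 441, 438 and 442 against 389, 286 and 301. The start-site peak (chr1:193270912-193273688), which spans both exons, held 2716, 2801 and 2291 against 2094, 1170 and 1841. All 3 were apart between the genotypes, with changes of -0.39 ± 0.198, -0.33 ± 0.205 and -0.24 ± 0.215 (SE; limma adjusted p = 0.609, 0.673 and 0.766). The 4 changes were negative under every normalization, with and without PC1 and with each BAT library left out. In iWAT, the G0s2 start-site peak (chr1:193272531-193273429) held 328, 281 and 283 in flox and 303, 272 and 291 in AKO. It overlapped, as did the other 2 iWAT peaks, and the 3 changes lay between -0.04 and 0.04 (limma adjusted p from 0.913 to 0.97).

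Lpl encodes lipoprotein lipase and had 15 peaks in BAT, the most of any member there, and 9 in iWAT, as many as Mgll. The peak 31.2 kb upstream in BAT (chr8:68848497-68850072) held 382, 363 and 345 normalized reads in flox and 235, 280 and 203 in AKO. The genotypes were well apart, and the AKO mean was 0.659 of the flox mean. The log2 fold change was -0.70 ± 0.212 (SE, n = 3 per group; limma unadjusted p = 0.0126, adjusted p = 0.48), and -0.61 without PC1. In iWAT the overlapping peak (chr8:68848817-68849209) held 65.6, 31.1 and 56.0 against 44.95, 27.4 and 21.4. There the aliquots overlapped, with a change of -0.69 ± 0.345 (SE; limma adjusted p = 0.401).

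The Lpl start-site peak in BAT (chr8:68880219-68881767) held 1493, 1190 and 988 in flox and 1086, 620 and 939 in AKO. AKO replicate 1 lay above flox replicate 3, and the change was 0.02 ± 0.176 with PC1 (SE; limma adjusted p = 0.984) and -0.49 without it. The BAT peaks 19.6 kb upstream (chr8:68860633-68861191) and 95.5 kb downstream of the start (chr8:68975844-68976167) were also lower in AKO without overlap, with changes of -0.27 ± 0.199 and -0.19 ± 0.23. The 15 BAT changes ran from -0.70 to 0.45, 9 of them negative with PC1 and 14 without it. In iWAT the start-site peak (chr8:68880300-68881448) held 233, 165 and 268 against 211, 218 and 242, a change of 0.04 ± 0.198 (SE; limma adjusted p = 0.948). The iWAT peak 73.6 kb from the start (chr8:68953883-68954375) held 87.7, 92.3 and 95.5 against 80.7, 70.8 and 75.9. The aliquots were apart there, but the change of -0.28 ± 0.127 passed no test (limma adjusted p = 0.365, DESeq2 adjusted p = 0.635).

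Gpihbp1 encodes the capillary protein that binds lipoprotein lipase, and it is expressed by endothelial cells rather than adipocytes. No peak was assigned to it, and the nearest peak of any gene lay 19627 bp away in BAT and 18293 bp away in iWAT. Nothing can be read from this about its accessibility below the peak threshold.

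Angptl4 encodes a secreted inhibitor of lipoprotein lipase that is induced by fasting and PPARs. Its first-exon peak in BAT (chr17:33781043-33781661) held 674, 736 and 669 normalized reads in flox and 652, 336 and 470 in AKO. The genotypes were apart, although AKO replicate 1 lay close to flox replicate 3, and the change was -0.23 ± 0.265 with PC1 (SE, n = 3 per group; limma adjusted p = 0.816) and -0.56 without it. The BAT peaks in intron 3 (chr17:33779140-33779774) and over exons 5 and 6 (chr17:33776815-33777328) had changes of -0.11 ± 0.178 and -0.19 ± 0.232 with PC1, and of -0.72 and -0.63 without it. In iWAT the first-exon peak (chr17:33781203-33781760) held 191, 173 and 186 against 149, 161 and 170. All AKO aliquots were below all flox aliquots there, and the change was -0.20 ± 0.128 (SE; adjusted p = 0.512 in limma and 0.624 in DESeq2). The intron 3 peak in iWAT (chr17:33779063-33779924) held 267, 198 and 259 against 243, 201 and 197, with a change of -0.17 ± 0.171.

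**Figure D3:**
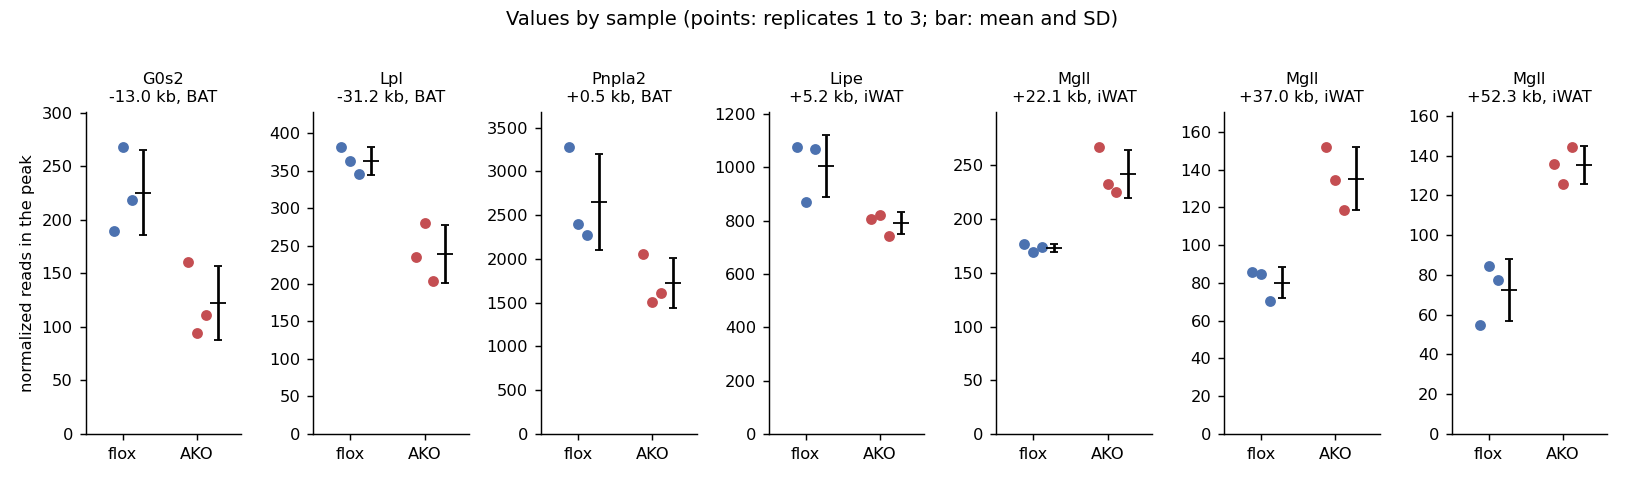
Normalized reads in each sample at 7 member peaks, with distance from the start site and tissue above each panel, points for replicates 1 to 3 and a bar for the mean and SD (n = 3). AKO points lie below flox points in the first 4 panels (G0s2, Lpl and Pnpla2 in BAT, Lipe in iWAT) and above them in the 3 Mgll panels in iWAT.

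By position relative to the gene, the BAT changes were negative at 14 of 16 upstream peaks, with a median of -0.25, at 13 of 23 peaks within genes, with a median of -0.02, at 3 of 7 start-site peaks and at 1 of 4 downstream peaks. Without PC1 they were negative at 13 of 16 upstream, 18 of 23 within genes, 7 of 7 at start sites and 3 of 4 downstream, so this order changed with the covariate. In iWAT, the change was negative at 4 of 8 upstream peaks and at 6 of 15 peaks within genes. Of the 15, 4 were higher without overlap, against 10.6% of all iWAT peaks at any position. All 4 were in Mgll, so the count is that of a single gene. These counts describe peaks that share a gene and were not tested.

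The level of the members at their starts also differed in flox. Per kb of the peak nearest the start, BAT signal ran from 1119 ± 60.4 normalized reads at Angptl4, 1049 ± 171 at Lipe, 1002 ± 208 at Pnpla2 and 937 ± 98.4 at G0s2 through 790 ± 164 at Lpl, 600 ± 110 at Mgll and 582 ± 28.8 at Pnpla3 to 461 ± 136 at Abhd5 and 428 ± 22.4 at Ces1d (SD, n = 3). Each gene overlapped with the next in this order. In iWAT the order began with Lipe at 468 ± 76.2, apart from Abhd5 at 370 ± 12.9, Pnpla2 at 351 ± 34.8, G0s2 at 331 ± 29.4 and Angptl4 at 329 ± 16.2, which overlapped with each other in turn. Angptl4 was apart from Mgll at 244 ± 6.93, and Mgll, Ces1d (214 ± 55.8), Lpl (193 ± 45.7) and Pnpla3 (186 ± 15.0) overlapped with their neighbours. The tables were normalized separately, so levels are not compared between tissues, and the Pnpla3 value is that of the peak 5.7 kb upstream.

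To ask whether the genotype difference itself differed between tissues, overlapping peaks were paired. The members gave 29 of the 31390 pairs, of which 8 were lower in AKO in both tissues, 7 higher in both, 8 lower in BAT and higher in iWAT, and 6 the reverse. No member pair passed an adjusted p of 0.1 for the interaction of genotype and tissue in limma, as for 0% of all pairs, and the smallest member adjusted p was 0.448. At an unadjusted p under 0.05, 4 member pairs differed against 9.52% of all pairs. These were the Mgll intron pairs at 22.1, 37.0 and 52.3 kb, where the iWAT change exceeded the BAT change by 0.50 ± 0.207, 0.59 ± 0.214 and 0.70 ± 0.256 (SE; limma unadjusted p = 0.0345, 0.0177 and 0.0193, adjusted p = 0.486, 0.448 and 0.448), and the Lpl pair at 73.6 kb, where it was lower by -0.73 ± 0.271 (SE; limma unadjusted p = 0.0205, adjusted p = 0.448). Without PC1 8 member pairs had an unadjusted p under 0.05. The share of all pairs in that fit is not given here, so this count cannot be set against a background. The BAT samples are mice and the iWAT samples aliquots of pools from cold-acclimated mice, and the tissues were sequenced on different instruments. Tissue, housing, instrument and kind of replicate therefore cannot be told apart.

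**Figure D4:**
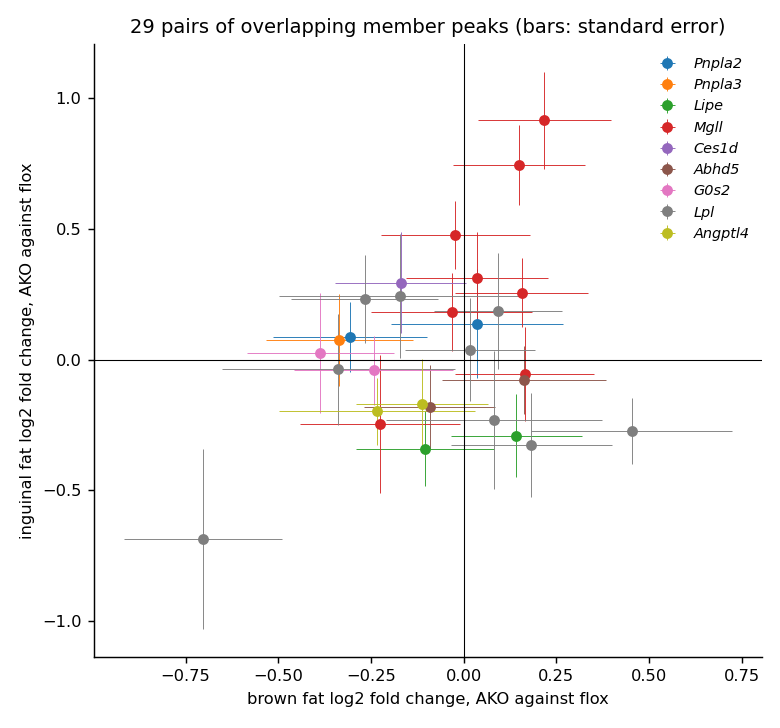
Fitted log2 fold change, AKO against flox, of the 29 pairs of overlapping member peaks in BAT (x axis) and iWAT (y axis), coloured by gene, with bars for the standard errors. The 3 Mgll pairs highest on the y axis (0.48 to 0.92) lie between -0.02 and 0.22 on the x axis.

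**Figure D5:**
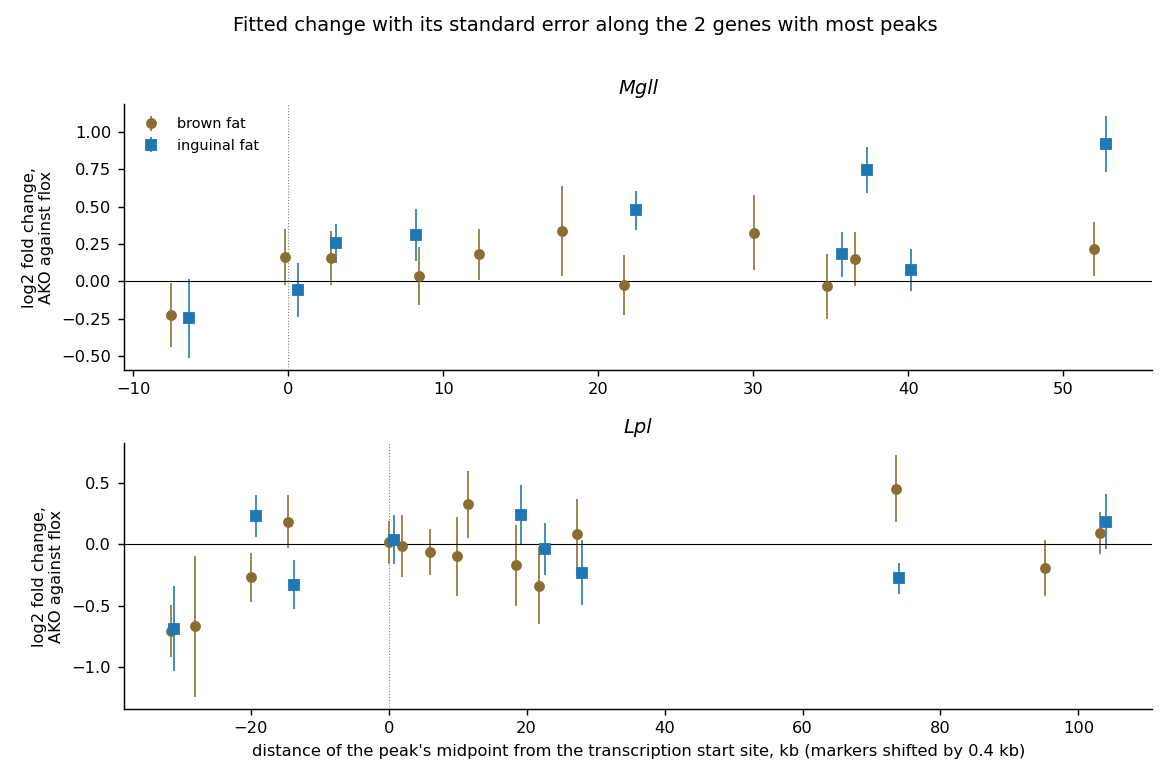
Fitted log2 fold change, AKO against flox, with its standard error along Mgll and Lpl, by distance of the peak's midpoint from the start site in kb, for BAT (circles) and iWAT (squares). In Mgll the iWAT values reach 0.92 at 52.3 kb, and in Lpl both tissues have their lowest value about 31 kb upstream (-0.70 and -0.69).

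Other genes of the pathway were counted from 6 lists. Over all BAT peaks 8.84% were lower and 8.77% higher without overlap, and DESeq2 called 0.217% and 0.0803%. The list counts were not tested against these shares. Among genes that coat the lipid droplet, where lipases act, 15 of 29 BAT peaks were lower in AKO without overlap and 0 were higher, with a median of -0.17. The smallest p was at a Plin2 peak (chr4:86651785-86652448), at 239, 213 and 283 against 168, 156 and 133, a change of -0.77 (limma adjusted p = 0.474), and the peak with the smallest p among positive changes was at Bscl2 (0.30). Fatty acid and glycerol transport genes had 15 of 69 BAT peaks lower and 3 higher without overlap, and Acsl1, an acyl-CoA synthetase, held both the lower (-0.89) and the higher (0.43) peak with the smallest p. Genes of the cAMP and protein kinase A signal, which switches lipolysis on, had 19 of 116 peaks lower and 3 higher without overlap. DESeq2 called 2 lower and 0 higher, among them a Gnas peak (chr2:174345679-174346327, -1.01, DESeq2 adjusted p = 0.059). This list mixes genes that raise the signal with genes that limit it, so its counts in either tissue give no direction for lipolysis. The Adrb1 peak named on the higher side (1.21) held only 3.86 to 18.6 normalized reads.

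The antilipolytic receptors had 10 of 63 BAT peaks lower and 1 higher without overlap, with Insr (-0.89) and Hcar2 (0.68) named. Other lipases and esterases had 9 of 52 lower and 6 higher, with Pnpla8 (-0.68) and Abhd6 (0.77), and lipoprotein lipase maturation and lipoprotein handling had 12 of 43 lower and 3 higher, with Vldlr (-0.53) and Angptl8 (0.93). In iWAT, where 10.3% of all peaks were lower and 10.6% higher without overlap and DESeq2 called 0.569% and 0.493%, the cAMP and protein kinase A genes had 3 of 62 peaks lower and 10 higher without overlap, with Adcy6 (-0.43, DESeq2 adjusted p = 0.0655) and Prkar2b (0.59) named. The lipoprotein lipase maturation genes had 1 of 28 lower and 6 higher there. A peak at Lmf1 (chr17:25636999-25637634), a factor that folds lipoprotein lipase, rose by DESeq2 from 34.9, 27.8 and 41.3 normalized reads to 68.0, 74.2 and 73.8 (1.05, DESeq2 adjusted p = 0.0333, limma adjusted p = 0.149), while Glmp, a lysosomal membrane protein, had -0.75. The remaining iWAT lists had 4 lower and 3 higher of 33 lipase and esterase peaks (Pnpla8 -0.77, Pnpla1 0.81), 2 and 1 of 28 antilipolytic receptor peaks (Gpr84 -0.41, Ptger3 0.31), 4 and 6 of 36 transport peaks (Fabp4 -0.85, Acsl1 0.79) and 0 and 4 of 19 droplet coat peaks (Bscl2 -0.24, Cidea 0.54).

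Motifs were counted in the 300-base window of every peak on both strands. The PPAR response element, with at most 2 mismatches, was in 3 of 50 BAT member windows (6.0%) against 6.4% of all BAT windows, and in 3 of 33 iWAT member windows (9.1%) against 5.2% of all. The BAT matches were at Lipe intron 1, G0s2 and Abhd5 intron 1, and the iWAT matches at Lipe intron 1, Mgll and Ces1d intron 7. The Ces1d match (chr8:93181746-93181758) lies outside its peak, which is narrower than the window. The exact Mgll element also lies inside a BAT peak (chr6:88716663-88717789), but outside the window of that peak. In peaks wider than 300 bases only the middle was searched, so a window without a match does not show that the peak has none. The NF1 motif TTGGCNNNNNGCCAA with at most 1 mismatch was in 1 iWAT member window (3.0% against 1.5%), at Mgll intron 2, 7.9 kb from the start, and in 0 in BAT (1.9% of all). No member window held the EBF motif TCCCNNGGGA (2.4% of all in BAT and 1.7% in iWAT) or the C/EBP motif TTGCGCAA (0.2% in each). The median GC content of member windows was 48.7% in BAT and 52.7% in iWAT, against 52.3% and 54.7% over all windows. The 8 RefSeq promoters matched to Abhd5, G0s2, Lipe, Mgll, Pnpla2 and Pnpla3 held none of these motifs.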

How the data were processed

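ATAC-seq was performed on nuclei of frozen BAT and iWAT with paired-end reads of 38 bp. Per the study's methods the tissues were sequenced on different instruments, and the iWAT reads were longer and were trimmed to 38 bp. The labels give 50000 nuclei per transposase reaction and the study's methods 5000. Per the submitters' processing notes, BWA 0.7.17-r1188, Picard 2.8.14, SAMtools, MACS2 2.1.1.20160309, bedtools 2.27.1 and DESeq2 1.20.0 were used with the build mm10. Peaks called in at least 2 replicates of a genotype were kept, and HOMER linked each to its closest gene, so a peak inside a member can carry another gene's name. For every peak and sample the authors deposited a signal, the reads in the peak divided by the sample's size factor. The tables also hold the authors' base means, log2 fold changes, standard errors, test statistics and p-values, which were not used. The BAT table was identified by its PC1 fit, which the methods give for BAT only. The signal gave whole reads within 0.01 for 100% of values in each library.

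Every peak was fitted with limma 3.58.1 in R 4.3.3 on log2(normalized reads + 1), with Benjamini-Hochberg adjustment over all peaks of the table and a threshold of 0.1. A fold change on this scale understates the change of low peaks. PC1 of all peaks was a covariate in BAT only, as in the study's methods, so a fitted BAT change need not equal the difference of the groups' average logs. As alternatives, DESeq2 1.42.0 and edgeR 4.0.16 were run on the recovered reads, and limma with a mean-variance trend on the same log2 values. DESeq2 called 127 lower and 47 higher BAT peaks and 225 lower and 195 higher iWAT peaks. Paired peaks of the tables shared at least 1 base. Scripts were tested on simulated data.

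Named were, per member and tissue, the peak nearest the start and that with the smallest limma p, per pathway list the smallest p in each direction, and Smarcd1. Other peaks given by value were chosen after their values were seen. The members and lists were chosen with earlier results of these data known. No pair of libraries agreed within sampling noise.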

Additional observations from a re-analysis of the deposited data

How the results depend on the processing

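Limma without a trend called 0 members in either tissue under every normalization, filter, pseudocount, covariate and block tried and with each library left out. The interaction called 0 pairs without PC1, with overlap of at least 50% of each peak, at an adjusted p of 0.05, with a replicate block and with each library left out. In the main fits limma without a trend also called 0% of all BAT and iWAT peaks, and the interaction 0% of all pairs. Limma did not call the Smarcd1 exon 5 peak in BAT either (limma adjusted p = 0.269). A count of 0 members is therefore not a trait of the members. Counts over all peaks for the other settings of limma without a trend are not given here. DESeq2 without PC1 called 2 BAT members lower. In iWAT, DESeq2, edgeR and limma with a trend each called 1 lower and 3 higher. Over all peaks the calls were, lower and higher, 127 and 47 (DESeq2), 63 and 16 (edgeR) and 44 and 9 (trend) in BAT, 303 and 300 in BAT with DESeq2 without PC1, and 225 and 195, 1006 and 846, and 792 and 648 in iWAT. The members' median ran from -0.19 to 0.014 in BAT and from -0.071 to 0.079 in iWAT with 1 library left out, the lowest iWAT value being without flox replicate 2, and it was 0.205 in iWAT with a PC1 covariate, where PC1 separates the genotypes.

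A replicate block gave BAT medians of -0.166 with PC1 and -0.26 without it and an iWAT median of 0.038, and changed no call of a member. Deviations from the genotype's mean correlated between same-numbered samples by 0.494, 0.063 and -0.236 in BAT and -0.039, -0.05 and -0.057 in iWAT. With 3 samples per genotype these values cannot settle whether the numbers pair the samples.

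Of 1024 values of 57 named peaks under alternatives, 947 kept direction and side of the threshold, 28 passed it and 49 changed sign. In BAT, without PC1, with DESeq2 without PC1 and with a replicate block without PC1, the values were -0.21 in each (Bscl2), -0.06, -0.01 and -0.06 (Adrb1), -0.17 in each (Mgll start), -0.29, -0.27 and -0.29 (Lipe start), -0.49, -0.47 and -0.49 (Lpl start), 0.26, 0.24 and 0.26 (Ces1d exon 14) and -0.31, -0.32 and -0.31 (Abhd5 start). The others in BAT were -0.03 for Mgll at 30.4 kb with DESeq2 without PC1, -0.01 for the Lpl start with total reads, and with a replicate block -0.04 (Lpl start) and -0.11 (Abhd5 start). With 1 library left out, the values ran from -0.07 to 0.11 (Lpl start) and from -0.57 to 0.03 (Angptl4 first exon).

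In iWAT with PC1 the values were 0.09 (Adcy6), 0.61 (Angptl4), -0.89 (Cidea), 0.27 (Bscl2), 0.89 (G0s2), 0.58 (Glmp), -0.85 (Ptger3), -0.84 (Mgll intron 3), 0.92 (Lipe first exon), -0.84 (Pnpla2 upstream), -0.32 (Acsl1), -0.63 (Ces1d) and 1.17 (Abhd5 upstream). With 1 aliquot left out they ran from -0.03 to 0.24 (Pnpla3), -0.08 to 0.03 (G0s2 start), -0.21 to 0.10 (Mgll start), -0.03 to 0.29 (Pnpla2 upstream) and -0.16 to 0.19 (Lpl start), and the Lpl start was at -0.00098 in edgeR. The cause was not tested. Depth limits the low peaks: with at least 10 reads required in every sample, 32 of the 33 iWAT members remained.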

Other observations

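Some peaks inside the members carry the name of a neighbouring gene and were outside the counts above. The distal part of Mgll holds peaks assigned to Abtb1. In iWAT all 3 had a positive change, at chr6:88786060-88786503 (0.64 ± 0.157, SE; limma unadjusted p = 0.00416, DESeq2 adjusted p = 0.0775), chr6:88804155-88804200 (0.79 ± 0.262, with 7.91 ± 2.49 normalized reads in flox) and chr6:88821132-88822260 (0.21 ± 0.145). In BAT the 5 peaks assigned to Abtb1 also had positive changes with PC1, at 0.69, 0.95, 0.59, 0.15 and 0.31, and the last of them lies beyond the end of Mgll. Of these, 2 of 3 in iWAT were higher in AKO without overlap, against 10.6% of all iWAT peaks. In BAT 2 of 5 were, against 8.77% of all BAT peaks. They were looked at because of the Mgll result, and the counts were not tested.

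The start of Pnpla3 is covered by a peak assigned to Mir6392. Its log2 fold change was -0.14 ± 0.173 (SE) in BAT, where every AKO value was below every flox value, and 0.21 ± 0.173 in iWAT, where the genotypes overlapped. Peaks inside Pnpla3 assigned to Samm50 had changes of 0.46 ± 0.186 and -0.35 ± 0.244 in BAT and -0.01 ± 0.224 in iWAT. The first of these (chr15:84181960-84182341) was higher in every AKO sample, as for 8.77% of all BAT peaks (limma adjusted p = 0.538). A peak inside Abhd5 assigned to A730085K08Rik had changes of 0.19 ± 0.31 in BAT and 0.315 ± 0.185 in iWAT, with overlapping genotypes. These values were looked at after the member results were known and were not used in any count.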
